A study of Mus musculus with 4 samples.

Results

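Small nucleolar RNAs (snoRNAs) were followed in the suprachiasmatic nucleus (SCN), the hypothalamic clock nucleus, of mice with and without a pituitary gland. Members were the probesets (sets of array probes for 1 transcript) that the platform annotation assigned to exactly 1 gene symbol beginning with Snord or Snora. The rule gave 75 probesets for 73 genes, out of 23521 probesets with a single symbol for 22180 genes. Of the 73 genes, 47 were box C/D snoRNAs (Snord) and 26 were box H/ACA snoRNAs (Snora).

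Box C/D snoRNAs pair with ribosomal RNA (rRNA) and direct the methyltransferase fibrillarin to the ribose of a chosen nucleotide, while box H/ACA snoRNAs direct the pseudouridine synthase dyskerin to a chosen uridine. A few snoRNAs, among them U8, U13, U17 and U22, act in cleavage or base modification of the rRNA precursor rather than as methylation or pseudouridine guides. Most mammalian snoRNAs lie in introns of host genes, often genes for ribosomal proteins or ribosome assembly factors, and are cut out of the spliced intron, so a snoRNA and its host messenger RNA share 1 transcript but not 1 stability.

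The study measured 4 arrays in a design of surgical state by time, 1 array for each of 4 groups. HPX mice were hypophysectomized and non-HPX mice were the controls. Hypophysectomy removes the gland and with it the pituitary hormones. RNA was taken at Zeitgeber time (ZT) 2, after lights on, or ZT14, after lights off, under alternating 12 h spans of light and darkness. The SCN was cut out by laser microdissection, and the tissue of 10 animals at each time was pooled; whether that number holds for each surgical state, and the strain, sex and age of the mice, were not given in the sources used here. All groups were pooled samples, dissected and labelled in the same way, and a level in pooled bulk tissue cannot tell fewer cells of a type from less RNA per cell. Each deposited value is a log2 intensity. With 1 array a group, a difference between 2 arrays has no replicate check and is given as a description, with the same quantity over all genes beside it.

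The tissue label was checked against 11 marker genes of SCN neurons, and all 11 reached the level taken here as expressed. That level is the median, over all genes, of a gene's highest value on the 4 arrays, which was 6.02, and it left 11090 expressed genes. Of 15 measured markers of other cell types, 11 reached it, so the samples also held RNA of glia and vessels. The median of the 11 was 7.25 and 7.23 on the non-HPX arrays (ZT2 and ZT14) and 7.24 and 7.25 on the HPX arrays. The vessel markers did not share this flat median: Pecam1 had 6.52 and 6.39 in non-HPX and 6.80 and 6.69 in HPX, and Cldn5 had 6.33 and 6.08 against 6.42 and 6.66. Both were higher in HPX without overlap, while the third vessel marker, Flt1, had 6.75 and 6.62 against 6.48 and 6.85. Choroid plexus Ttr was below the floor on every array, at 5.53, 5.58, 5.46 and 5.53. Oxt, the oxytocin gene of neighbouring hypothalamic neurons, had HPX minus non-HPX differences of −2.43 at ZT2 and −1.47 at ZT14 on the log2 scale. The part of vessel and Oxt neurons in the snoRNA values was not tested.

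Of the 73 snoRNA genes, 57 reached the floor on all 4 arrays, 3 on some of them and 13 on none, so 60 were expressed, 37 box C/D and 23 box H/ACA. Because 1 high array is enough to pass, a member that passed on few arrays had to differ between them: Snord73a reached the floor on 2 arrays, both non-HPX, Snora75 on 3 and Snora20 on 1. Snora20, with a highest value of 6.05, lay just inside the floor, and Snord19, with 5.98, just outside it. The 13 genes below the floor were 10 box C/D and 3 box H/ACA, and values over all members are given beside those over the expressed ones. Probe levels are not compared between genes. Members that are near-identical copies of each other (Snora73a and Snora73b, Snord73a and Snord73b, Snord35a and Snord35b, Snord49a and Snord49b) may share probe signal.

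The host genes of the snoRNAs that the results turn on are shown first, by their start. The windows run from 70 bases before to 30 bases from the annotated transcript start, on the + strand, from the RefSeq table of GRCm38.p6. Capitals mark runs of at least 5 C or T that reach within 5 bases of the start, the sign of the terminal oligopyrimidine genes to which many ribosomal protein and snoRNA host genes belong, and the motif CACGTG, the E-box bound by the clock factors CLOCK and BMAL1. The 4 hosts carry the members with surgery calls (Eif4g1, Snhg16) and 2 clusters whose members can be compared within 1 transcript.
Eif4g1, host of Snord66, chr16:20672657-20672756: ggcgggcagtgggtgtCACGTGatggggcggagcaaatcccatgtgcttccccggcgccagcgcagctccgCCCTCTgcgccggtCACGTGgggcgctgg
Snhg16, host of Snord1b, chr11:116671590-116671689: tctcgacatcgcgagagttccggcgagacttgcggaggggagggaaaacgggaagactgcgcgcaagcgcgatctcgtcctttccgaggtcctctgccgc
2410006H16Rik, host of Snord49a, Snord49b and Snord65, chr11:62602807-62602906: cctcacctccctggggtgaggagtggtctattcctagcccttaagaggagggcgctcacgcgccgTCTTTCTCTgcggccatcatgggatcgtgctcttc
Snhg12, host of Snora16a, Snora44, Snora61 and Snord99, chr4:132308608-132308707: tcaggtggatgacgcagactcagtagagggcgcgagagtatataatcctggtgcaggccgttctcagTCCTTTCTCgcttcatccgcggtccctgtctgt

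Eif4g1, which encodes a scaffold of translation initiation, held 2 E-boxes and a C/T run of 6 bases. The noncoding hosts 2410006H16Rik and Snhg12 each had a C/T run of 9 bases and no E-box, and the Snhg16 window had no E-box and no such run within 5 bases of its start. In windows of 300 bases around the start, a C/T run at the start was present in 48.8% of 43 windows of 40 host genes and in 31.4% of all 32851 windows. CACGTG, which reads the same on both strands, was present in 20.9% of the host windows and in 7.15% of all. The C/T run was searched on the transcript's strand and does not overlap the E-box motif. These matches describe letters in a window and no factor was measured at them.

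The design asks whether loss of the pituitary goes with a change in the SCN transcriptome at either time. Most box C/D snoRNAs with a single-symbol probeset were lower in HPX at both times, above all the short ones. The box H/ACA snoRNAs lay closer to the other genes. Among expressed probesets with several symbols, which are no members, 30 name a box C/D snoRNA. Of these, 16 share 1 repeated set of symbols and were not below 0 at either time. Of the other 14, 14 were below 0 at ZT2 and 13 at ZT14. Over the 37 expressed box C/D genes, the median HPX minus non-HPX difference was −0.44 at ZT2 (range −1.12 to 0.28) and −0.44 at ZT14 (range −0.89 to 0.40). The difference was below 0 in 31 of 37 at ZT2 and 36 of 37 at ZT14, where 65.6% and 46.7% of all expressed genes were below 0. The median of all expressed genes was −0.06 at ZT2 and 0.01 at ZT14. Over all 47 box C/D genes the medians were −0.40 and −0.34, with 39 and 42 below 0. Neither array scaling tried as an alternative turned the box C/D medians at either time.

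Over the 23 expressed box H/ACA genes the median difference was −0.08 at ZT2 (range −0.54 to 0.51), which turned to 0.01 when each array was centred on its expressed genes, and −0.23 at ZT14 (range −0.49 to 0.02). At ZT2, 14 of 23 were below 0, a share near that of all genes, and at ZT14 21 of 23 were. All 26 box H/ACA genes gave medians of −0.07 and −0.20. The difference between the classes was not tested, since members are not replicates of a condition.

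**Figure D1:**
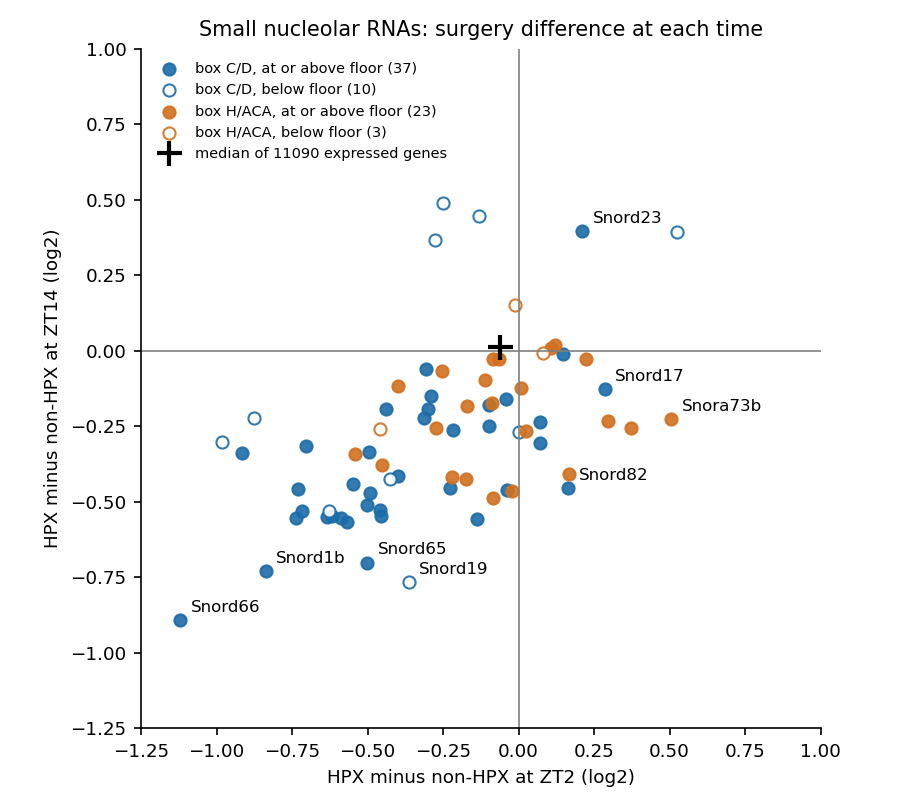
Each point is 1 snoRNA gene, with its HPX minus non-HPX difference at ZT2 on the x axis and at ZT14 on the y axis, both in log2; open points are the 13 genes below the floor, and the cross is the median of all 11090 expressed genes. Box C/D points gather in the lower left, around medians of −0.44 at both times, and box H/ACA points lie nearer to the cross at ZT2 (median −0.08, or 0.01 after centring of the arrays).

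A difference of at least 1.5-fold lower in HPX was reached by 10 of 37 expressed box C/D genes at ZT2 and 3 at ZT14, against 0.622% and 0.469% of all expressed genes. At ZT2 these were Snord66, Snord73a, Snord1b, Snord58b, Snord35b, Snord55, Snord71, Snord61, Snord73b and Snord49a, and at ZT14 they were Snord66, Snord1b and Snord65. No expressed snoRNA was 1.5-fold higher in HPX at either time (0.225% and 0.153% of all genes were), and no expressed box H/ACA gene was 1.5-fold lower. Of the genes below the floor, Snord37, Snord85 and Snord88a were 1.5-fold lower at ZT2 and Snord19 at ZT14. Of the expressed members, only Snord66 at ZT2 was past 2-fold.

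Both HPX arrays lay below both non-HPX arrays in 29 of 37 expressed box C/D genes and in 9 of 23 box H/ACA genes, against 17.8% of all expressed genes. Both lay above in 1 box C/D gene, Snord23, and in 0 box H/ACA genes, against 8.37%. The HPX ZT14 array was the lowest of the 4 in 26 of 37 box C/D and 16 of 23 box H/ACA genes, where 24.6% of all genes had their lowest value on it.

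Snord66, annotated as a methylation guide for small-subunit rRNA, had values of 7.37 (ZT2) and 6.94 (ZT14) on the non-HPX arrays and 6.25 and 6.05 on the HPX arrays. The surgical states did not overlap, and the HPX values were 2.18-fold lower at ZT2 and 1.85-fold lower at ZT14. Snord1b, a guide for large-subunit rRNA, had values of 7.88 and 7.59 on the non-HPX arrays and 7.05 and 6.86 on the HPX arrays. Here too the states did not overlap, with HPX 1.79-fold and 1.66-fold lower. A model with time and surgery as additive terms (limma, two-sided, Benjamini-Hochberg over 11090 genes) called both lower in HPX, Snord66 by −1.01 ± 0.12 on the log2 scale (SE; adjusted p = 0.0108) and Snord1b by −0.78 ± 0.11 (adjusted p = 0.0363).

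With 1 array a group the limma model takes the interaction of time and surgery as its error, with 1 residual degree of freedom. Both calls were lost when the filter on low values was dropped (adjusted p = 0.916 for each), and that of Snord1b also on single probesets (adjusted p = 0.111). They were 2 of 15 genes called lower, 0.135% of the genes tested, and the model called 0 genes higher. At an unadjusted p under 0.05 the same fit had 23 box C/D genes lower and 1 higher, and 5 box H/ACA genes lower and 0 higher, where 3.23% of all genes were lower and 1.45% higher. The smallest adjusted p in box H/ACA was 0.499, for Snora31.

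Other guides differed by a like amount at both times. Snord61 (host Rbmx, an RNA-binding protein gene) had 10.51 and 10.48 on the non-HPX arrays and 9.88 and 9.93 on the HPX arrays. Snord58b (host Rpl17) had 8.58 and 8.04 against 7.84 and 7.49. In both the lower non-HPX array lay above the higher HPX array, although the additive fit did not call them (adjusted p = 0.161 and 0.139; limma), except for Snord58b after centring of the arrays (adjusted p = 0.0389).

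Further examples came from the ribosomal protein genes Rpl13a and Rps3a1, while other snoRNAs in such hosts lay near 0 or above it at ZT2 (Snord15a in Rps3 −0.04, Snora62 in Rpsa −0.02, Snora7a in Rpl32 0.17). Snord35a (host Rpl13a) had 10.03 and 9.90 on the non-HPX arrays and 9.46 and 9.33 on the HPX arrays, a difference of −0.57 at both times. In Rps3a1, Snord73b had 8.85 and 8.64 against 8.23 and 8.10, and neither of its HPX values reached its non-HPX ones. Snord73a, from the same host, had 6.22 and 6.28 against 5.31 and 5.94, so its ZT2 difference of −0.92 rests on an array below the floor.

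**Figure D2:**
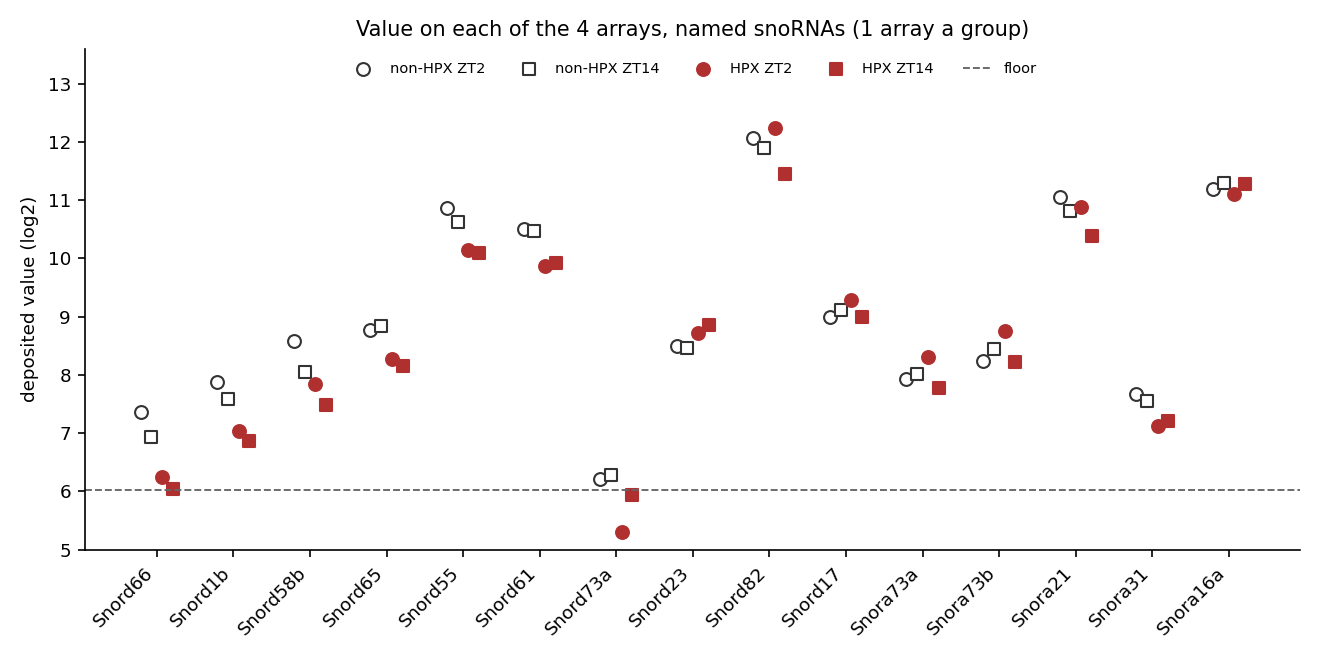
Deposited log2 value (y axis) on each of the 4 arrays for 15 named snoRNAs (x axis); circles are ZT2, squares ZT14, open symbols non-HPX, filled symbols HPX, and the dashed line is the floor at 6.02. There is 1 array a group, so no error bars are drawn. In Snord66, Snord1b, Snord58b, Snord65, Snord55 and Snord61 both filled symbols lie below both open ones; in Snord23 they lie above, and in Snora73a, Snora73b and Snord82 they lie on either side.

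The 3 box C/D members of the noncoding host 2410006H16Rik could be read within 1 transcript. Snord49a had 10.53 and 10.24 on the non-HPX arrays and 9.94 and 9.69 on the HPX arrays. Snord49b had 11.29 and 11.09 against 10.83 and 10.57, and Snord65 had 8.77 and 8.85 against 8.27 and 8.15. All 3 were lower in HPX at both times without overlap. The host itself had 8.14 and 8.13 on the non-HPX arrays and 8.65 and 8.15 on the HPX arrays, a difference of 0.50 at ZT2 and 0.03 at ZT14.

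Snhg12 carries snoRNAs of both classes. Its box C/D member Snord99 had 10.93 and 10.68 on the non-HPX arrays and 10.49 and 10.49 on the HPX arrays. Of its H/ACA members, Snora44 had 9.93 and 9.81 against 9.71 and 9.39, and Snora61 had 8.20 and 8.11 against 7.93 and 7.86. These 3 had both HPX arrays below both non-HPX arrays. Snora16a, the fourth product of this transcript, had 11.20 and 11.30 against 11.11 and 11.27, and its order followed time rather than surgery. The host Snhg12 differed by 0.23 at ZT2 and 0.01 at ZT14.

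The proteins Nop56 and Nop58, core subunits of the box C/D particle, are themselves hosts of box C/D snoRNAs. Snord110, in Nop56, had 11.52 and 11.45 on the non-HPX arrays and 11.03 and 10.98 on the HPX arrays, and Nop56 itself differed by −0.28 at ZT2 and −0.35 at ZT14. Snord11, in Nop58, had 9.63 and 9.66 against 9.23 and 9.25, with Nop58 differing by −0.04 and −0.08. Snord70, also in Nop58, had 9.06 and 8.94 against 8.92 and 8.38, with most of its difference at ZT14. The limma fit did not call Nop56 for surgery (adjusted p = 0.92).

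Snord23, in Nop53, was the only expressed box C/D gene that was higher in HPX at both times. It had 8.50 and 8.45 on the non-HPX arrays and 8.71 and 8.85 on the HPX arrays. Both HPX values lay above both non-HPX values (additive difference 0.30 ± 0.12 SE, adjusted p = 0.935; limma). Nop53 differed by −0.01 at ZT2 and 0.24 at ZT14. Below the floor, Snord43 was also higher in HPX, by 0.53 and 0.39.

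The snoRNAs of rRNA cleavage and early processing were a list of 17 genes, and 6 of these had a single-symbol probeset. All of the 6 but U3 (Rnu3a) are also counted in the class results above. The median HPX minus non-HPX difference of the 6 was 0.02 at ZT2 (range −0.22 to 0.51) and −0.24 at ZT14. At ZT2, 3 lay below 0 and 3 above, so that median describes none of them. U8 (Snord118) had 6.53 and 6.48 on the non-HPX arrays and 6.43 and 6.23 on the HPX arrays. U13 (Snord13) had 11.32 and 11.22 against 11.23 and 11.04, and U22 (Snord22, in Snhg1) had 11.67 and 11.56 against 11.45 and 11.30. In U8 and U22 the states did not overlap, and in U13 they did, since the HPX ZT2 value lay just above the non-HPX ZT14 value.

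U17, which acts in release of the small-subunit rRNA, is encoded by Snora73a and Snora73b in the noncoding host Snhg3. Snora73a had 7.94 at ZT2 and 8.02 at ZT14 in non-HPX, and 8.31 and 7.77 in HPX. Snora73b had 8.24 and 8.45 in non-HPX, and 8.75 and 8.22 in HPX. Both were therefore highest on the HPX ZT2 array and lowest on the HPX ZT14 array. U3, measured as Rnu3a, had 6.10 and 6.32 in non-HPX and 6.23 and 6.08 in HPX.

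Among expressed box H/ACA guides, Snora31 (host Tpt1) and Snora33 (host Rps12) were furthest below non-HPX at ZT2. Snora31 had 7.67 and 7.56 on the non-HPX arrays and 7.13 and 7.22 on the HPX arrays. Snora33 had 9.42 and 9.33 against 8.97 and 8.95. Neither overlapped between the states, and neither passed the additive fit (adjusted p = 0.499 and 0.543; limma). Snora33 is the mean of 2 probesets, with values of 6.47 and 12.36 on the non-HPX ZT2 array and HPX minus non-HPX differences at ZT2 of −0.55 and −0.36. Snora21 (host Rpl23) had 11.06 and 10.82 in non-HPX and 10.88 and 10.39 in HPX, and Snora34 (host Kansl2) had 11.15 and 11.12 against 11.15 and 10.99. Snora23 (host Ipo7) had 10.00 and 10.28 in non-HPX and 10.29 and 10.05 in HPX, so that it too was highest on the HPX ZT2 array.

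Next to Snord23, the upper end of the expressed members at ZT14 was held by H/ACA genes with differences near 0. Snora35, in an intron of the serotonin receptor gene Htr2c, had 7.27 and 7.40 in non-HPX and 7.39 and 7.41 in HPX. Snora78 had 6.10 and 6.07 against 6.21 and 6.08.

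The annotated length of the snoRNA moved with the surgery difference. All 73 members had a length in the RefSeq table of GRCm38.p6, with a median of 68 nt in expressed box C/D genes and 122 nt in expressed box H/ACA genes. Expressed box H/ACA lengths ran from 61 nt (Snora20) to 205 nt, with 62 nt for Snora61. Lengths were used as annotated and were not checked. Across the 60 expressed members, length and the ZT2 difference had a Spearman rho of 0.64, and within the classes it was 0.41 (37 box C/D) and 0.73 (23 box H/ACA). At ZT14 rho was 0.44 over both classes, 0.43 in box C/D and 0.10 in box H/ACA. Over all 73 members rho was lower, 0.50 at ZT2 and 0.27 at ZT14. The points share the same 4 arrays and are a description.

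The 28 expressed box C/D genes of up to 90 nt had medians of −0.50 at ZT2 and −0.47 at ZT14. Against 17.8% of all expressed genes, 24 of these 28 had both HPX arrays below both non-HPX arrays. They held all 10 and 3 differences of at least 1.5-fold and both calls of the additive fit. The 9 box C/D genes over 90 nt had medians of −0.10 and −0.22, with 5 of 9 without overlap below and 1 above. The 90 nt mark was set after the values were seen; nearest to it were Snord35a (89 nt, −0.57 at both times) and Snord16a (91 nt, −0.31 and −0.22). Snord17, the longest at 221 nt (host Snx5), had 9.00 and 9.12 in non-HPX and 9.28 and 8.99 in HPX. Class and length overlap in these members, and the part of length, of probe number or of recovery of short RNA was not tested.

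**Figure D3:**
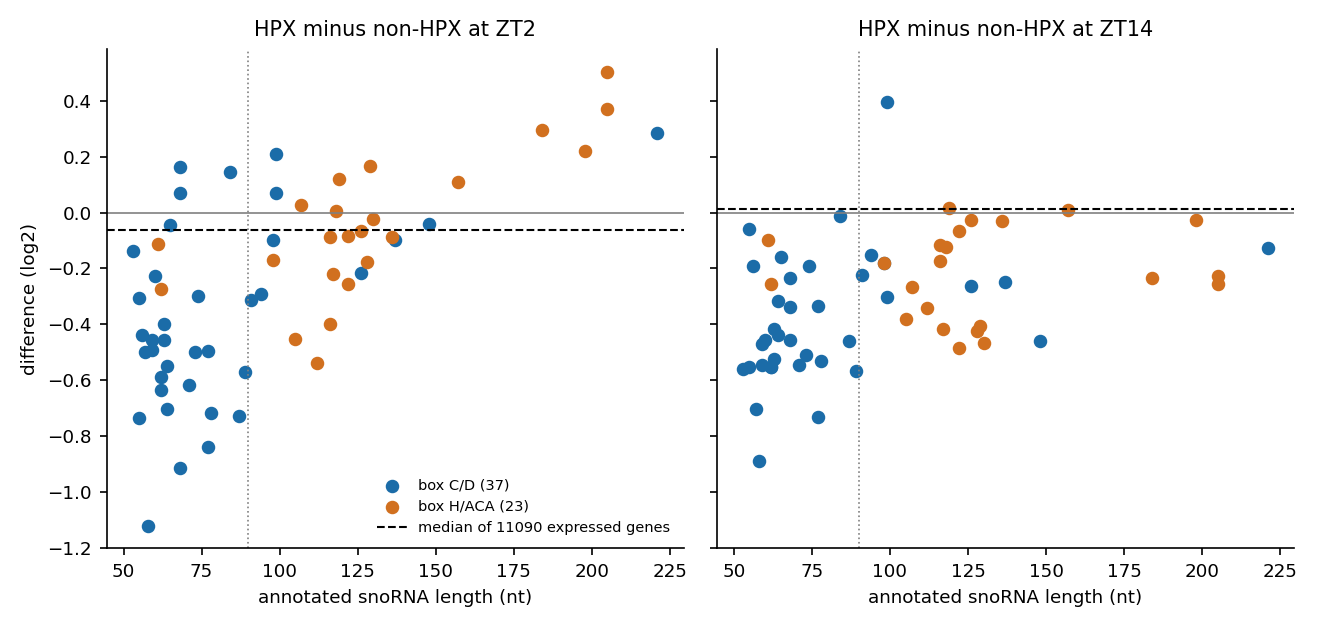
HPX minus non-HPX difference in log2 (y axis) against annotated snoRNA length in nt (x axis) at ZT2 (left) and ZT14 (right), for 37 box C/D and 23 box H/ACA expressed genes; the dashed line is the median of all 11090 expressed genes and the dotted line marks 90 nt. At ZT2 the points run from −1.12 (Snord66, 58 nt) to 0.51 (Snora73b, 205 nt), with a Spearman rho of 0.64, and at ZT14 rho is 0.44.

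Host transcripts lay nearer to 0 than their box C/D snoRNAs. Of the 60 expressed members, 52 lay in a single RefSeq gene, 5 in several and 3 in none (Snord118, Snord13 and Snord89), and 43 had an expressed host with its own probeset, in 34 hosts. Eif4g1 and Snhg16, hosts of the members called for surgery, had no single-symbol probeset and were not analysed here. In 24 box C/D pairs the snoRNA median was −0.42 at ZT2 and −0.45 at ZT14, against host medians of 0.08 and −0.01. The snoRNA was below its host in 20 of 24 at each time. In 19 box H/ACA pairs the snoRNA medians were −0.06 and −0.23 against 0.10 and 0.01, with 11 and 16 of 19 below. No host reached 1.5-fold in any of the 4 differences, and across the 43 pairs the Spearman rho between snoRNA and host was −0.13 at ZT2 and −0.02 at ZT14.

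The machinery of the particles had medians nearer to 0 than the box C/D snoRNAs, while some members lay further off. Of the core box C/D proteins, Nop56, Nop58 and Snu13 had a median of −0.04 at ZT2 and −0.14 at ZT14, and fibrillarin was not measured alone. Their range was −0.28 (Nop56) to 0.07 at ZT2 and −0.35 (Nop56) to −0.08 at ZT14. The 4 core box H/ACA proteins, Dkc1 (dyskerin), Nop10, Nhp2 and Gar1, had a median of −0.08 at both times. At ZT14 they ran from −0.30 (Nhp2) to 0.16 (Dkc1). Both HPX arrays lay below both non-HPX arrays in 2 of the 3 and 2 of the 4, against 17.8% of all expressed genes. The 12 expressed of 13 measured assembly factors had −0.06 (range −0.32 to 0.40) and 0.04 (range −0.15 to 0.20). The 20 expressed of 22 genes of RNA polymerase I and ribosome assembly had −0.04 and 0.10. The 49 expressed of 67 ribosomal protein genes had 0.12 and −0.07, and 17 expressed of 19 snoRNA host noncoding RNAs had 0.14 and −0.04. The limma fit called none of these list members for surgery or for time. Over all expressed genes it called 0.135% lower and 0% higher for surgery, and 0.343% lower and 0.198% higher for time. An absence of calls in lists of this size therefore says little.

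Other noncoding RNAs that are not messenger-like were set beside the snoRNAs; their lengths were not compared. The 8 expressed small RNAs of other families (among them 7SK, RNase P RNA and Y RNAs) had a median of 0.06 at ZT2 and −0.18 at ZT14. The 140 expressed genes of a microRNA list had a median of 0.07 at ZT2 (52 below 0) and −0.0008 at ZT14 (71 below 0). The 4 expressed small Cajal body RNAs (scaRNAs), relatives of snoRNAs that guide modification of spliceosomal RNA, had 0.14 and −0.44. Scarna17 had 9.35 and 9.51 in non-HPX and 9.30 and 8.72 in HPX, and Scarna10 had 11.04 and 11.12 against 11.43 and 10.83. In all 4 scaRNAs the HPX ZT14 array was the lowest, as in 42 of the 60 expressed snoRNAs. The same held in 6 of the 8 other small RNAs, 28 of the 49 expressed ribosomal protein genes and 27 of the 140 microRNA genes, against 24.6% of all genes. The part of that array in the ZT14 values was not tested.

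**Figure D4:**
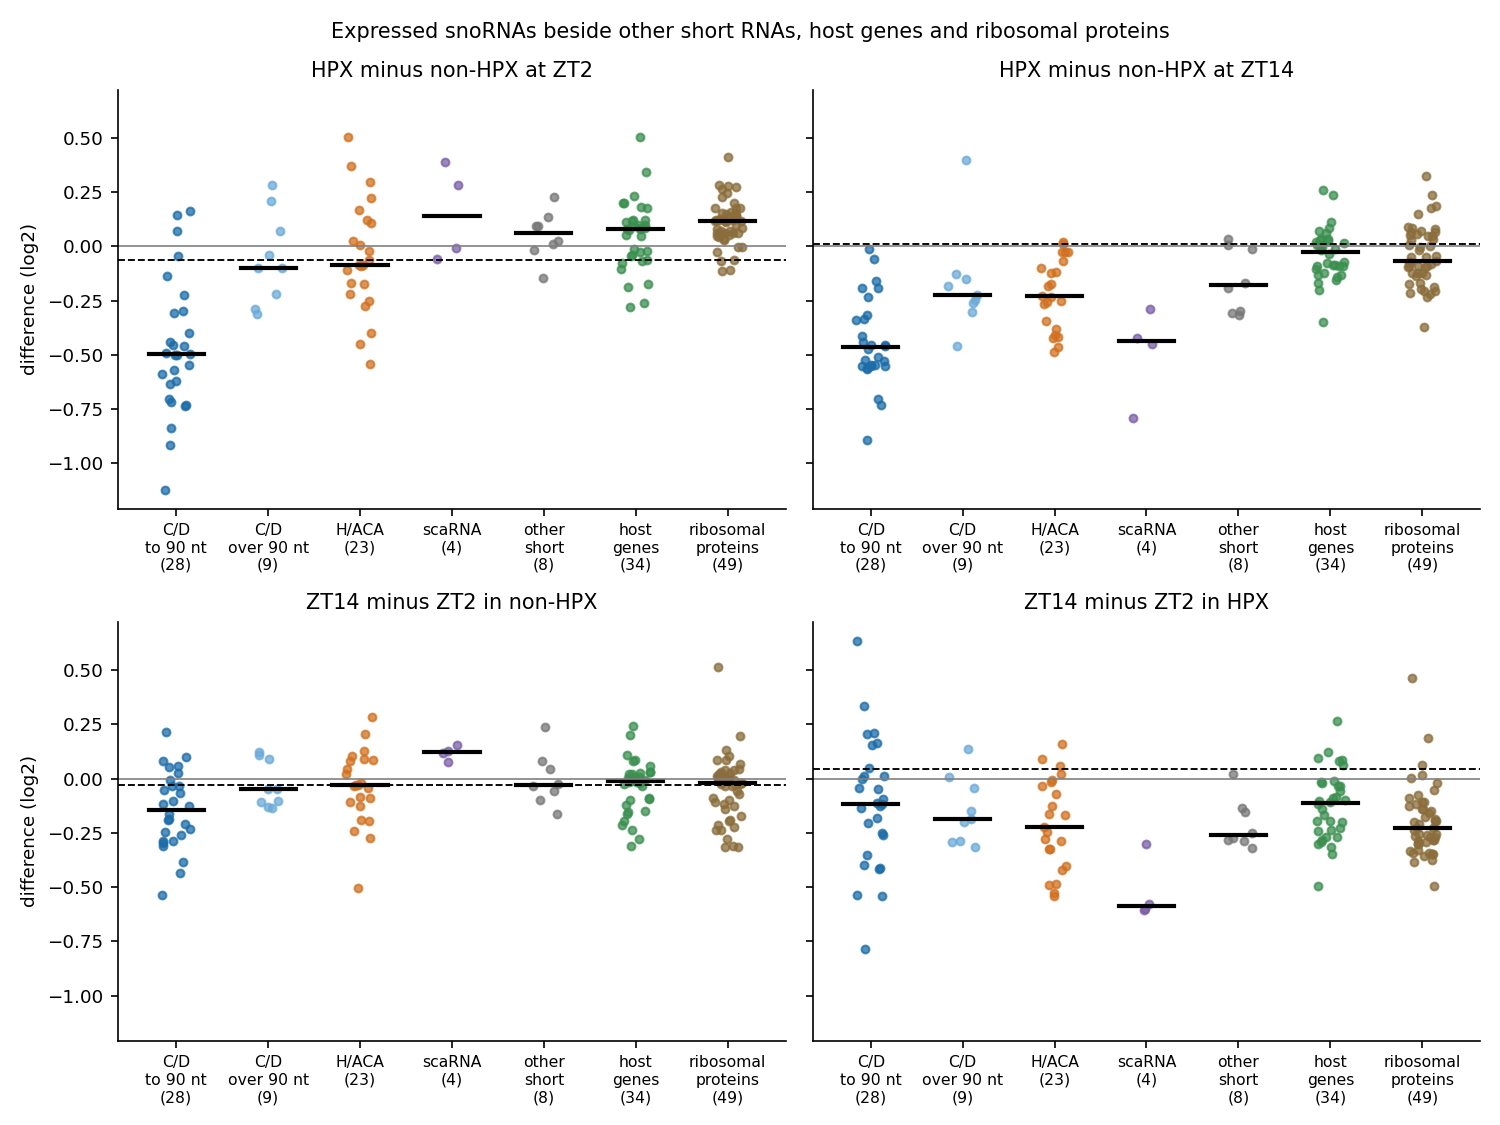
Log2 differences (y axis) of expressed genes in 7 groups (x axis, number of genes in brackets) for HPX minus non-HPX at ZT2 and ZT14 (top) and ZT14 minus ZT2 in each surgical state (bottom); points are genes, thick bars medians, and the dashed line the median of all 11090 expressed genes. The 28 box C/D genes of up to 90 nt have medians of −0.50 and −0.47 in the top panels, while the 34 host genes lie around 0, and the 4 scaRNAs move from 0.14 at ZT2 to −0.44 at ZT14.

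Time of day was the other factor, and few snoRNAs stood apart with it. In non-HPX mice the median ZT14 minus ZT2 difference was −0.11 in the 37 expressed box C/D genes, with 28 below 0, and −0.03 in the 23 box H/ACA genes, with 14 below 0; the latter turned to 0.01 when arrays were centred. All expressed genes had a median of −0.03, with 57.9% below 0. In HPX mice the medians were −0.12 (26 of 37 below 0) and −0.22 (19 of 23), where all genes had a median of 0.04 and 41.2% were below 0. Expressed ribosomal protein genes had a like median in HPX, −0.23 (44 of 49 below 0), and the other small RNAs −0.26 (7 of 8). The expressed microRNA genes had 0.06 (62 of 140 below 0). Over all members the box C/D medians were −0.13 and −0.12 and the box H/ACA medians −0.03 and −0.16. No expressed snoRNA differed by 1.5-fold with time in non-HPX, where 0.712% of all genes were lower and 0.406% higher at ZT14.

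In HPX, Snord82 was at least 1.5-fold lower at ZT14 and Snord73a 1.5-fold higher, against 0.848% and 0.956% of all genes; both Snord73a values in HPX lay below the floor. Snord82, in the nucleolin gene Ncl, had 12.07 at ZT2 and 11.90 at ZT14 in non-HPX, and 12.23 and 11.45 in HPX. It was thus both highest and lowest on the HPX arrays, while Ncl stayed between 9.43 and 9.52 on all 4. The H/ACA member of the same host, Snora75, had 6.64 and 6.13 in non-HPX and 6.24 and 6.02 in HPX, with its larger time difference in non-HPX. Below the floor, Snord52, Snord91a and Snord92 were 1.5-fold lower at ZT14 in non-HPX, and Snord19 and Snord92 in HPX.

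**Figure D5:**
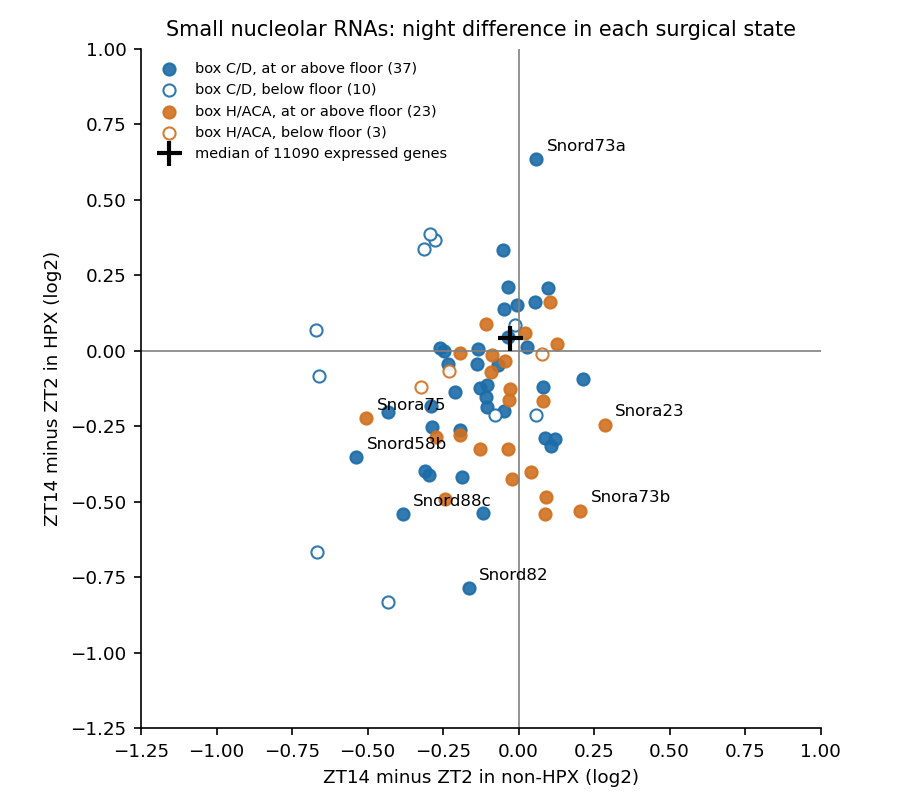
ZT14 minus ZT2 difference in non-HPX (x axis) and in HPX (y axis), in log2, for each of the 73 snoRNA genes; open points are below the floor and the cross is the median of all 11090 expressed genes. Snord82 and Snord73a are the expressed genes past 1.5-fold in HPX, and 19 of the 23 expressed box H/ACA points lie below 0 on the y axis (median −0.22).

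Both ZT14 arrays lay below both ZT2 arrays in 4 of 37 box C/D and 7 of 23 box H/ACA genes, against 18.2% of all expressed genes. Both lay above in 0 box C/D genes and in 2 box H/ACA genes, Snora16a and Snora35, against 20.1%. The limma fit called 0 snoRNAs for time, with 0.343% of genes called lower and 0.198% higher; at an unadjusted p under 0.05 it had 9 box C/D genes lower and 1 higher and 3 box H/ACA genes lower and 0 higher (all genes 4.36% and 3.85%). The smallest adjusted p was 0.198, for Snord88c, which had 6.95 at ZT2 and 6.57 at ZT14 in non-HPX and 7.10 and 6.56 in HPX. Its states did overlap and its times did not.

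Other members with a time difference at the ends of the range were as follows. The lists of Gas5, Snhg1 and Rpl13a snoRNAs each had 1 measured member (Snord47, Snord22 and Snord35a). Snord47 had 11.79 and 11.49 in non-HPX and 11.74 and 11.33 in HPX, lower at ZT14 in both states. Snord53 had 6.97 and 7.18 in non-HPX and 7.04 and 6.94 in HPX. Snord71, a guide for the short rRNA of the large subunit, had 8.99 and 8.93 in non-HPX and 8.28 and 8.62 in HPX, with a ZT14 minus ZT2 difference of 0.33 in HPX and −0.05 in non-HPX, and Snord42b had 7.84 and 7.81 against 7.54 and 7.75. Snord87 had 11.35 and 11.44 in non-HPX and 11.05 and 11.25 in HPX. The change in the time difference between states reached 2-fold in none of the 60 expressed members, where 0.0631% of all genes were past it downwards in HPX and 0.0451% upwards.

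The snoRNAs of the imprinted clusters that hold many brain snoRNA copies, in the Prader-Willi region and at Dlk1-Dio3, had no probeset with a single snoRNA symbol and were not analysed here.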

How the data were processed

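RNA of laser-microdissected mouse SCN was measured on 4 arrays, 1 per group. Per the submitters' processing notes, the deposited log2 values were made by RMA in Affymetrix Expression Console, and neither version nor genome build is given in the sources used here. Such processing gives all arrays the same distribution, so a shift of total RNA is not visible. The median of all probesets on the arrays lay between 5.45 and 5.52, and the number of arrays limits the precision. Probesets were named by the platform annotation. Of 41345, 23521 had 1 symbol, 1814 several and 16010 none listed; several for 1 gene were averaged. Genes whose highest value reached 6.02 were kept. Differences are of log2 values. The additive fit used limma 3.58.1 (R 4.3.3) with time and surgery, 1 residual degree of freedom and a threshold of 0.05. Its prior SD was 0.12 with 8.77 prior degrees of freedom. It was also run on data simulated under its own assumptions without an interaction, which cannot check the calls made here. Replicate spread was not measured, so p-values rest on the interaction as error. Lengths, hosts and start windows came from RefSeq GRCm38.p6. Members, gene lists and tests were chosen with earlier results of these data known. Named were all called members, the 3 highest and 3 lowest in each difference and in the change between states, the 5 brightest of each class and listed snoRNAs; others chosen after their values were seen serve as examples of hosts, lengths or families. Alternatives were another fold mark, cyclic loess, another floor, single probesets and, added after seeing the data, centring.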

Additional observations from a re-analysis of the deposited data

Results flagged for a closer look

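Snora73a and Snora73b, the U17 genes of Snhg3, stood out because their ZT14 minus ZT2 differences had opposite signs in the surgical states. The HPX difference minus the non-HPX difference was −0.63 in Snora73a and −0.73 in Snora73b on the log2 scale. Snord82 stood out because its HPX minus non-HPX differences had opposite signs at the 2 times, with a change of −0.62 from ZT2 to ZT14. With 1 array a group none of these contrasts was tested, and all 3 genes had their highest value on the HPX ZT2 array and their lowest on the HPX ZT14 array.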

How the results depend on the processing

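The box C/D medians for HPX minus non-HPX stayed between −0.34 and −0.45 at both times under every alternative. Medians near 0 changed sign: centring turned those of box H/ACA for HPX minus non-HPX at ZT2 (−0.08) and for ZT14 minus ZT2 in non-HPX (−0.03) to 0.01. At 2-fold, expressed box C/D genes lower in HPX numbered 1 at ZT2 and 0 at ZT14, and 0 were lower and 0 higher at ZT14 in HPX mice; at 1.5-fold, the change of the time difference took in 1 box C/D and 2 box H/ACA genes, all lower. Cyclic loess gave 2 box C/D and 1 box H/ACA genes lower at ZT14 in HPX. Without the filter the limma fit called 0 snoRNAs for surgery, and 3 box C/D genes were lower at ZT14 in each surgical state. With the floor at the 75th percentile it called 1, 0 box C/D genes were higher at ZT14 in HPX, and the box H/ACA median change of the time difference was −0.25 (−0.10 at the usual floor). On single probesets it called 1, Snord1b having an adjusted p of 0.111. Centring called 4 snoRNAs for surgery, in a fit with 14.91 prior degrees of freedom against 8.77 in the main fit. It counted 3 box C/D genes lower and 0 higher and 2 box H/ACA genes lower at ZT14 in HPX. It also counted 1 box H/ACA gene higher in HPX at ZT2. The box C/D median change of the time difference turned from 0.02 to −0.08 with centring (−0.02 with loess). Shares of all genes under these alternatives are not given, so the counts are no result about snoRNAs. No paired analysis was possible because the labels give no replicate numbers and each group has 1 array, and no array could be left out for the same reason.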

Other observations

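A further 43 probesets list a snoRNA together with another symbol and are therefore no members; 38 of them reached the floor. Of these, the 14 that name a box C/D snoRNA, outside 1 repeated set of symbols, had a median HPX minus non-HPX difference of −0.38 at ZT2 and −0.34 at ZT14, with 14 and 13 below 0. The 8 that name a box H/ACA snoRNA had medians of 0.08 and −0.10. The 16 probesets that share the repeated set of symbols had medians of 0.07 and 0.03. These probesets were not used in any count above, and their genes cannot be told apart.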
